A study of Drosophila melanogaster with 20 samples.

Results

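The genes described here are 4 chromatin genes of Drosophila melanogaster, each read through a single transcript on the array. They are HDAC3 (FBtr0078767), kis (FBtr0078144), SuUR (FBtr0076203) and His4r (FBtr0082962), chosen by transcript identifier, and they make up 4 of 15473 transcripts measured. Wings were collected in 4 groups of 5 samples, each sample being total RNA pooled from 10 dissected wings and labelled with Cy3 for a NimbleGen array. Tkv pupal wings and control pupal wings were taken 24 h after pupa formation, and Tkv larval wings and control larval wings came from wandering larvae of instar 3. Tkv wings expressed a UAS transgene for activated Thickveins under Gal4, and control wings came from the matched strain lacking that transgene. Animals of all 4 groups were grown at 18 °C and held at 28 °C for 10 h before dissection, so the controls share the heat shift. The labels used here do not name the Gal4 driver, so the cells that express the transgene are not known from them. The tkv transcript could not be named from the files, and the transgene was therefore not checked. The labels call the samples independently isolated and say no more of the animals, so each p-value reflects only the spread among these arrays.

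Thickveins (Tkv) is a BMP type I receptor that binds the ligand Decapentaplegic, and its activated form signals without ligand. In the larval wing disc that signal patterns growth along the anterior-posterior axis, and in the pupal wing it takes part in vein formation. The 4 genes act on the chromatin on which such signals are read. HDAC3 encodes a class I histone deacetylase that works with the SMRTER corepressor. The gene kis (kismet) encodes a trithorax-group chromodomain helicase linked to transcription elongation. SuUR (Suppressor of Underreplication) encodes a protein with an SNF2-like domain that associates with late-replicating chromatin and slows replication forks there, best known from polytene chromosomes. His4r is the histone H4 replacement gene, which lies outside the histone gene cluster and encodes the same H4 protein as the cluster genes.

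By the RefSeq table of Release 6, HDAC3 and His4r lie on chromosome arm 3R, SuUR on 3L and kis on 2L. The genome build behind the transcript identifiers is not stated in the labels or files used here, and no coordinates are therefore printed. HDAC3 and SuUR were each read by 5 probe pairs and have 1 RefSeq transcript. The probe sets of kis and His4r had 4 probe pairs each, and these genes have 6 and 4 RefSeq transcripts, so other isoforms may share the signal. Probe sequences were not used here, and a contribution of cluster H4 transcripts to the His4r signal was not tested. All values below are log2 intensities after quantile normalization of the 20 arrays, and differences between groups are on that log2 scale. Probe sets differ in brightness, so levels are compared between groups for 1 gene and never between genes.

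The differences that passed the test lay between pupal and larval wings, and no response of the 4 genes to activated Thickveins passed. In Tkv pupal against Tkv larval wings, HDAC3 and SuUR fell and kis rose, 3 of the 4 genes, where limma called 39.3% of all transcripts at an adjusted p under 0.05, 18.9% as higher and 20.5% as lower. In control wings 1 of the 4, HDAC3, fell, where limma called 40.6% of all transcripts, 20.8% as lower. With slide as a fixed block, HDAC3, kis and SuUR passed in both genotypes, where limma called 41.8% of all transcripts in Tkv and 43.0% in control wings. With slide as a random block SuUR did not pass in control wings (limma adjusted p = 0.0805). None of the 4 passed for Tkv against control in pupal wings (3.16% of all transcripts called), in larval wings (1.4%), or for the difference between these responses (0.679%). In these last 3 limma comparisons the number of the 4 genes with an unadjusted p under 0.05 was also 0, where 2062, 1508 and 1206 of the 15473 transcripts had one. The means in the stage comparisons of Tkv and of control wings come from different arrays, while each stage comparison shares arrays with the Tkv comparisons. All of these comparisons share 1 estimate of the spread per transcript, taken from the 20 arrays, so they are not separate evidence. All 3 calls in Tkv wings were lost when Tkv arrays were fitted alone.

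**Figure D1:**
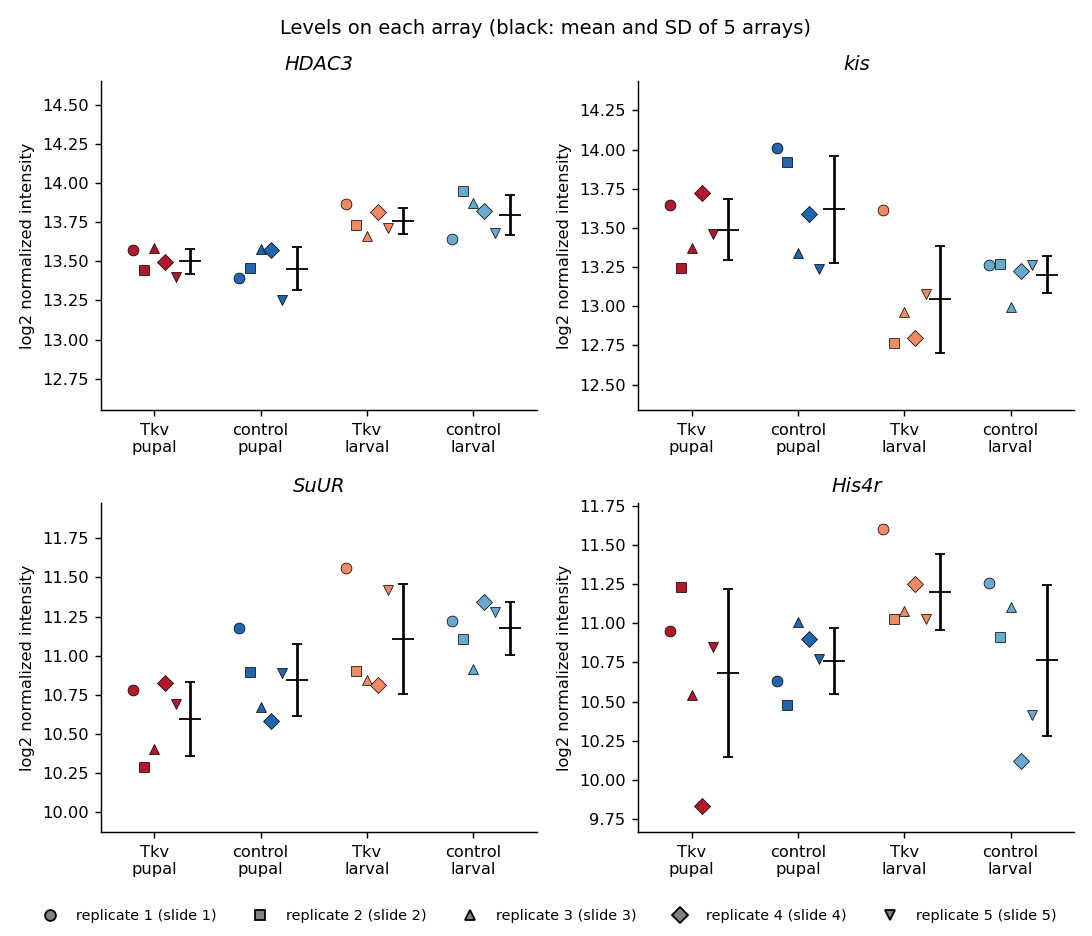
Log2 normalized intensity of HDAC3, kis, SuUR and His4r on each of the 20 arrays, 5 per group, with symbols for the replicate number, which is also the slide, and black bars for the mean and SD. The vertical axes span the same log2 range in each panel, and only for HDAC3 do the pupal arrays lie apart from the larval arrays.

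HDAC3, the deacetylase, was lower in pupal than in larval wings in both genotypes, by a small amount measured with a narrow spread. Tkv pupal wings gave 13.57, 13.44, 13.58, 13.50 and 13.40, and control pupal wings 13.39, 13.46, 13.58, 13.57 and 13.25 (replicates 1 to 5). Tkv larval wings gave 13.86, 13.73, 13.66, 13.81 and 13.71, and control larval wings 13.64, 13.95, 13.87, 13.82 and 13.68. The highest pupal array of either genotype, at 13.58, lay below the lowest larval array, at 13.64. In Tkv wings HDAC3 averaged 13.50 ± 0.079 in pupae and 13.76 ± 0.081 in larvae (SD, n = 5 each), and in control wings 13.45 ± 0.14 and 13.79 ± 0.13. The change was -0.26 ± 0.089 in Tkv wings (SE, limma adjusted p = 0.0264) and -0.34 ± 0.089 in control wings (limma adjusted p = 0.00391), which is 1.20-fold and 1.27-fold lower in pupae. Within slides, each of which held 1 array of every group, the sign was negative on 5 of 5 slides in both genotypes, between -0.32 and -0.078 in Tkv wings and between -0.49 and -0.25 in control wings. HDAC3 was the only one of the 4 genes whose pupal and larval ranges did not overlap, against 27.9% of all transcripts in Tkv wings and 32.1% in control wings. Between Tkv and control wings the ranges of all 4 genes overlapped at both stages, where 4.46% of transcripts in pupal and 3.35% in larval wings did not. The pooled SD of HDAC3, 0.11, was smaller than that of all but 2.93% of transcripts, where the median transcript had 0.30. In absolute size 39.6% of transcripts had a smaller stage change in Tkv wings and 49.7% in control wings, so the HDAC3 change was near the median size.

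The HDAC3 call in control wings held in all 34 refits run, with limma adjusted p between 0.00127 and 0.0368. The call in Tkv wings was lost with median centring (0.0572), with slide and array position in the model (0.0734) and with Tkv arrays alone (0.0545), all limma adjusted p. It was also lost without replicate 1 or 4 of the Tkv larval wings (0.0537 and 0.0571), without replicate 2 or 5 of the Tkv pupal wings (0.0530 and 0.0629), and with every array numbered 1, 2, 4 or 5 left out (0.0571, 0.0893, 0.102 and 0.0696). The change itself stayed between -0.31 and -0.23 in the 34 refits.

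Between Tkv and control wings HDAC3 differed by 0.048 ± 0.089 in pupae, with a 95% interval of -0.14 to 0.23, and by -0.036 ± 0.089 in larvae, with an interval of -0.22 to 0.15 (limma adjusted p = 0.914 and 0.956). As folds, these intervals reach from 0.909 to 1.18 in pupae and from 0.857 to 1.11 in larvae, Tkv over control. In order of mean level, control pupal and Tkv pupal wings came lowest and overlapped, and Tkv larval and control larval wings came highest and overlapped. The response to Tkv differed between stages by 0.085 ± 0.13 (limma adjusted p = 0.942).

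**Figure D2:**
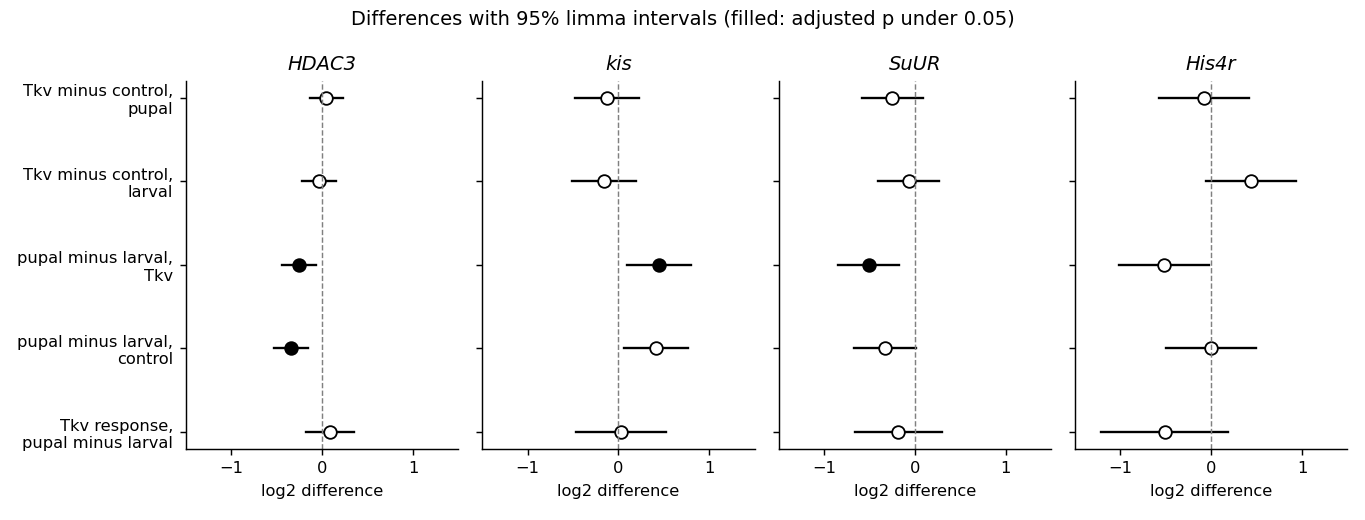
Log2 differences between groups for the 4 genes as points with 95% limma intervals, filled where the adjusted p was under 0.05. All filled points belong to pupal minus larval differences: HDAC3 in both genotypes at -0.26 and -0.34, and kis at 0.45 and SuUR at -0.51 in Tkv wings.

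The helicase gene kis was the 1 gene of the 4 that was higher in pupal wings. Tkv pupal wings gave 13.65, 13.24, 13.37, 13.72 and 13.46, and control pupal wings 14.01, 13.92, 13.34, 13.59 and 13.24. Tkv larval wings gave 13.61, 12.77, 12.96, 12.80 and 13.08, and control larval wings 13.26, 13.27, 12.99, 13.22 and 13.26. Replicate 1 of the Tkv larval wings was high and lay inside the pupal range, and the other 4 arrays of that group lay below every pupal array. In Tkv wings kis rose to 13.49 ± 0.20 in pupae, against 13.04 ± 0.34 in larvae (SD, n = 5 each), a change of 0.45 ± 0.17 (SE, limma adjusted p = 0.0410) or 1.36-fold. In control wings the means were 13.62 ± 0.34 in pupae and 13.20 ± 0.12 in larvae, a difference of 0.42 ± 0.17 or 1.33-fold that missed the threshold (limma adjusted p = 0.0541). With slide as a block the control difference passed (limma adjusted p = 0.0315). Both genotypes thus had nearly equal estimates on opposite sides of the threshold, and the difference between them was 0.028 ± 0.24 (limma adjusted p = 0.987). Within slides the difference was positive on 5 of 5 slides in Tkv wings, from 0.032 to 0.92, and on 4 of 5 in control wings, from -0.025 to 0.75. Of all transcripts, 59.1% had a smaller absolute stage change in Tkv wings, and 56.6% in control wings.

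The kis call in Tkv wings was lost in 4 of 9 refits with other processing. Limma adjusted p was 0.0512 without further normalization and 0.0512 from the series table, which holds the same values, so these 2 refits are 1 fit. It was 0.0570 with median centring and 0.0676 with Tkv arrays alone. The call was also lost without replicate 2, 3, 4 or 5 of the Tkv larval wings (0.108, 0.0771, 0.103 and 0.0590). Without replicate 1, 4 or 5 of the Tkv pupal wings it was lost as well (0.0885, 0.0990 and 0.0581). Leaving out all arrays of replicate 2, 3, 4 or 5 also ended it (0.0848, 0.0937, 0.232 and 0.0810). The high replicate 1 of the Tkv larval wings acted the other way, and without it the change in Tkv wings was 0.59 (limma adjusted p = 0.00401). The control difference passed without that same array (0.0239), without replicate 3 or 5 of the control pupal wings (0.0345 and 0.0219) and with every array numbered 5 left out (0.0468).

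The kis level of Tkv wings lay slightly under that of control wings at both stages, within the spread. The difference was -0.13 ± 0.17 in pupae, with a 95% interval of -0.48 to 0.22, and -0.16 ± 0.17 in larvae, with an interval of -0.51 to 0.19 (limma adjusted p = 0.854 and 0.852). The larval difference was -0.30 without replicate 1 of the Tkv larval wings and -0.088 without replicate 2 (limma adjusted p = 0.524 and 0.964). Slides did not share a sign, with 3 of 5 positive in pupae and 1 of 5 in larvae. In order of mean level the groups ran from Tkv larval through control larval and Tkv pupal to control pupal wings, and every pair of neighbours overlapped.

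SuUR, the replication-linked gene, was lower in pupal than in larval wings, past the test in Tkv wings. Tkv pupal wings gave 10.78, 10.29, 10.41, 10.82 and 10.69, and control pupal wings 11.18, 10.90, 10.68, 10.59 and 10.89. Tkv larval wings gave 11.56, 10.90, 10.84, 10.81 and 11.42, and control larval wings 11.22, 11.11, 10.91, 11.34 and 11.28. Replicates 1 and 5 of the Tkv larval wings were high, and the highest Tkv pupal array, replicate 4 at 10.82, overlapped the lowest Tkv larval array at 10.81. In Tkv wings SuUR fell to 10.60 ± 0.24 in pupae, against 11.11 ± 0.35 in larvae (SD, n = 5 each), a change of -0.51 ± 0.16 (SE, limma adjusted p = 0.0160), which is 1.42-fold lower. In control wings the means were 10.85 ± 0.23 in pupae and 11.17 ± 0.17 in larvae, a difference of -0.33 ± 0.16 that missed the threshold (limma adjusted p = 0.116). With slide as a block that control difference passed (limma adjusted p = 0.0461), and with slide as a random block it did not (0.0805). Within slides the difference was negative on 4 of 5 slides in Tkv wings, from -0.78 to 0.012, and on 5 of 5 in control wings, from -0.76 to -0.047. The stage changes of both genotypes differed by -0.18 ± 0.23 (limma adjusted p = 0.925), so a larger change in Tkv wings was not shown.

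The SuUR call in Tkv wings held in 23 of 25 refits with arrays left out and in 8 of 9 with other processing. It was lost with every array numbered 2 or every array numbered 5 left out (limma adjusted p = 0.0594 and 0.0767) and with Tkv arrays alone (0.0505). In the deposited error column, whose unit is not stated, the SuUR value of replicate 2 of the control pupal wings was 0.373, while its other values on the 20 arrays were 0.923 or higher. Without that array the control difference was -0.34 (limma adjusted p = 0.140).

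SuUR was lower in Tkv than in control wings on 4 of 5 slides in pupae, by a difference that did not pass. The pupal difference was -0.25 ± 0.16, with a 95% interval of -0.58 to 0.089 (limma adjusted p = 0.589), and with slide as a block the limma adjusted p was 0.380. In larvae the difference was -0.067 ± 0.16, with an interval of -0.40 to 0.27 (limma adjusted p = 0.955). By mean level the groups ran from Tkv pupal through control pupal and Tkv larval to control larval wings, with overlapping neighbours throughout.

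**Figure D3:**
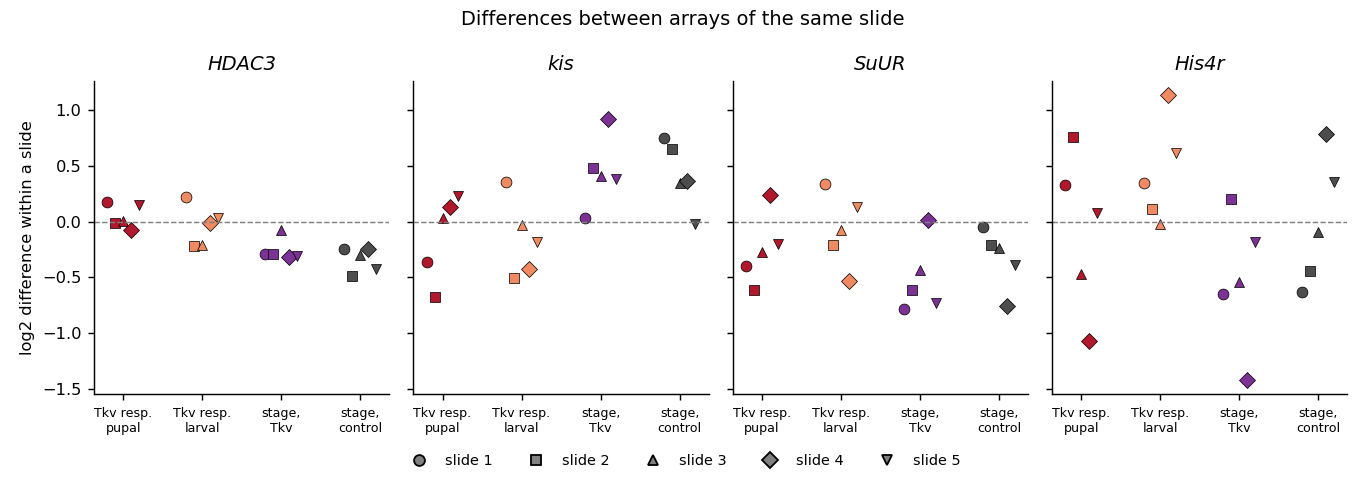
Log2 differences between arrays of the same slide for the 4 genes, with symbols for the 5 slides: Tkv minus control in pupal and larval wings, then pupal minus larval in Tkv and control wings. HDAC3 stage differences lie below 0 on all 5 slides in both genotypes, while those of His4r spread from -1.42 to 0.78.

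His4r, the histone gene, had the widest spread of the 4 and passed no test. Tkv pupal wings gave 10.95, 11.23, 10.54, 9.84 and 10.85, and control pupal wings 10.63, 10.48, 11.01, 10.90 and 10.77. Tkv larval wings gave 11.60, 11.03, 11.08, 11.25 and 11.03, and control larval wings 11.26, 10.91, 11.10, 10.12 and 10.42. Replicate 4 was the lowest array of both the Tkv pupal and the control larval wings, and the second highest of both other groups. The pooled SD was 0.39, and 70.8% of transcripts had a smaller one. Means were 10.68 ± 0.53 in Tkv pupal, 10.76 ± 0.21 in control pupal, 11.20 ± 0.24 in Tkv larval and 10.76 ± 0.48 in control larval wings (SD, n = 5 each). The Tkv larval mean was the highest. The lowest Tkv larval array, at 11.03, lay just above the highest control pupal array, at 11.01. Those groups differ in both stage and genotype and were not tested against each other. The share of all transcripts that lie apart between them was not counted, so this gap cannot be set against it. Between stages within 1 genotype that share was 27.9% in Tkv and 32.1% in control wings. Every other pair of groups overlapped.

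In larval wings His4r was 0.44 ± 0.24 higher in Tkv than in control wings, with a 95% interval of -0.059 to 0.93 (limma adjusted p = 0.599, unadjusted 0.0812), and 4 of 5 slides were positive. That difference, 1.35-fold, exceeded in size those of 89.7% of transcripts. Without replicate 4 of the control larval wings it was 0.27. In pupal wings the difference was -0.075 ± 0.24, with an interval of -0.57 to 0.42 (limma adjusted p = 0.960), and it was 0.14 without replicate 4 of the Tkv pupal wings. The responses at both stages differed by -0.51 ± 0.33 (limma adjusted p = 0.814), with an interval of -1.21 to 0.19. That difference was -0.30 without replicate 4 of the Tkv pupal wings and -0.088 with every array numbered 4 left out.

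Between stages His4r differed by -0.52 ± 0.24 in Tkv wings (limma adjusted p = 0.0928, unadjusted 0.0419) and by -0.0051 ± 0.24 in control wings (limma adjusted p = 0.990). The Tkv value was -0.30 without replicate 4 of the Tkv pupal wings (limma adjusted p = 0.283). It passed the threshold in 1 of 34 refits, the one without replicate 2 of the Tkv pupal wings (-0.65, limma adjusted p = 0.0362). The control interval, -0.50 to 0.49, reaches from 0.707-fold to 1.40-fold, pupal over larval, so changes within that range are not excluded.

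Since the difference between genotypes passed for none of the 4 genes, stage changes were also averaged over both genotypes in the same fit, a comparison chosen after the data had been seen. In this average HDAC3 fell by 0.30 ± 0.063 on the log2 scale, SuUR fell by 0.42 ± 0.11 and kis rose by 0.43 ± 0.12 in pupal wings (SE, limma adjusted p = 0.000444, 0.00422 and 0.00457). The average for His4r was -0.26 ± 0.17 (limma adjusted p = 0.208), between unlike estimates of -0.52 in Tkv and -0.0051 in control wings. All transcripts are called more often here, 51.5% of them. Averaged over both stages, the Tkv response was 0.0059 ± 0.063 for HDAC3, -0.14 ± 0.12 for kis, -0.16 ± 0.11 for SuUR and 0.18 ± 0.17 for His4r. None of these 4 averaged responses passed (lowest limma adjusted p = 0.591), where 4.12% of all transcripts did.

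**Figure D4:**
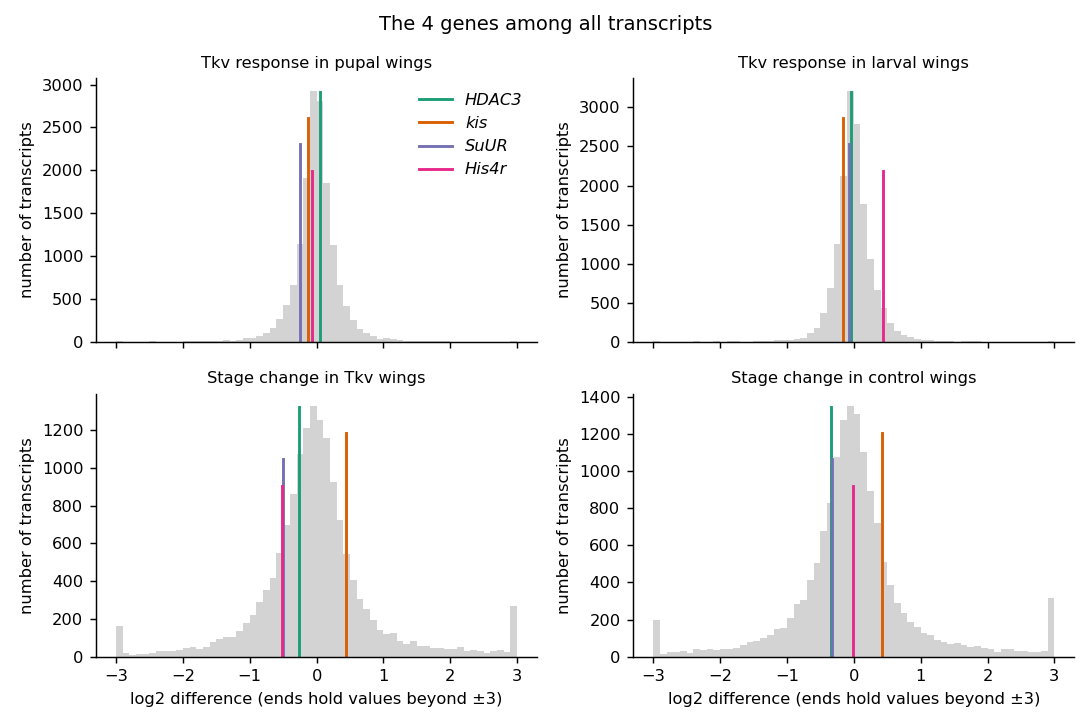
Distribution of log2 differences over all 15473 transcripts (grey, bins of 0.1) for the Tkv response in pupal and larval wings and the stage change in Tkv and control wings, with 4 coloured lines for the 4 genes, whose heights carry no value. Relative to its panel His4r at 0.44 in larval wings lies farthest out, with a smaller absolute difference in 89.7% of transcripts. By this measure the other lines lie nearer the middle of their panels.

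Set beside all transcripts, the 4 genes had a larger median absolute stage change in Tkv wings and similar or smaller absolute medians elsewhere. Each such median rests on only 4 values. Gene by gene, between 39.6% (HDAC3) and 64.3% (His4r) of transcripts had a smaller absolute stage change in Tkv wings. For the stage change the median absolute difference was 0.48 over the 4 genes and 0.35 over all transcripts in Tkv wings, and 0.34 over the 4 genes and 0.35 over all transcripts in control wings. The corresponding medians for the Tkv response were 0.10 and 0.15 in pupal wings and 0.11 and 0.14 in larval wings. The signed medians of the 4 genes were -0.38 in Tkv and -0.17 in control wings for the stage change, against -0.039 and -0.041 over all transcripts. None of the 4 genes was near the dim end. On each array HDAC3 was brighter than 85.5 to 92.6% of transcripts, kis than 79.7 to 93.1%, SuUR than 55.0 to 65.6% and His4r than 52.3 to 66.0%, which describes the probe signal and not the amount of mRNA.

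Among the 17 transcripts with a single gene symbol in the RefSeq table, profiles over the 4 group means (20 arrays) were compared by their root-mean-square difference after removal of each transcript's own mean. HDAC3 was closest to Wdr24 (0.045) and mio (0.10), both genes of the GATOR2 complex of nutrient signalling. The nearest to SuUR were mio (0.066) and Wdr24 (0.079). The profile of kis was nearest to alpha-Spec (0.076), which encodes a subunit of the spectrin membrane skeleton, and to the kinase gene Dyrk3 (0.094). The nearest to His4r were Wdr24 at 0.16 and HDAC3 at 0.17, farther off than the neighbours named for the other genes. Likeness of this degree was common, since 1.80% of all transcripts lay closer to HDAC3 than Wdr24 did, 2.68% closer to kis than alpha-Spec did and 0.969% closer to SuUR than mio did. For HDAC3 and mio the share was 11.7%, and for His4r and Wdr24 it was 11.4%.

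Replicate 1 of the Tkv larval wings was the highest array of its group for all 4 genes. Of all transcripts 31.3% were highest on that array within the group, and 28.2% were lowest on it. Without it the Tkv stage change was -0.23 for HDAC3, 0.59 for kis, -0.39 for SuUR and -0.41 for His4r, with limma adjusted p of 0.0537, 0.00401, 0.0495 and 0.202. The deposited median log2 intensities of the 20 arrays lay between 9.19 and 9.59 before quantile normalization.

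Other chromatin genes and the tissue itself could not be examined through gene names. None of 91 other chromatin genes, 26 genes of the Decapentaplegic pathway or the markers of 7 cell types had a single symbol among the transcripts, so the label dissected wing and the cell make-up were not tested. In such whole-tissue RNA, fewer cells of a type and less RNA per cell cannot be told apart, and larval and pupal tissue may differ in make-up. Of the 13 further transcripts with a symbol, 3 were higher and 5 lower in pupal than in larval Tkv wings by the limma test, 4 were higher and 5 lower in control wings, and none passed for Tkv against control at either stage. Of all transcripts, limma called 39.3% and 40.6% in those stage comparisons. For Tkv against control it called 3.16% in pupal and 1.4% in larval wings.

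**Figure D5:**
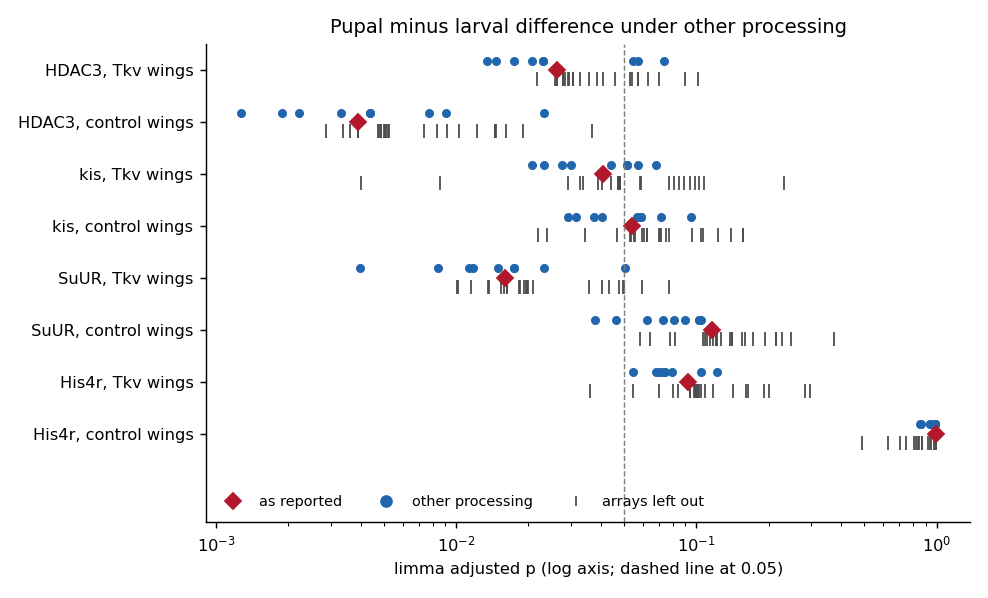
Limma adjusted p (log axis) of the pupal minus larval difference of each gene in Tkv and control wings, as reported (diamonds), with other processing (circles) and with arrays left out (ticks). Only HDAC3 in control wings stays left of the dashed line at 0.05 throughout, and only His4r in control wings stays right of it throughout.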

How the data were processed

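The authors deposited 1 file per array with a linear intensity per transcript, made with RMA (background correction, normalization and probe summary) per the submitters' processing notes. The software and the genome build are not stated in the labels or files used here. Each value rests on 3 to 5 probe pairs per the file headers. The deposited series table holds the log2 of these intensities to within 5.0e-09. A refit from it therefore repeats the fit without further normalization, and the counts of refits include both. A further deposited column headed as an error has no stated unit and was only described.

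Intensities were put on the log2 scale. Array medians differed by up to 0.40, above a limit of 0.1, so the 20 arrays were quantile-normalized; a shift of all transcripts would not be seen. limma 3.58.1 (R 4.3.3; 1 mean per group, 16 residual degrees of freedom, eBayes, two-sided) was run over 15473 transcripts without a filter, with Benjamini-Hochberg adjustment over all of them at 0.05, and tested on simulated data. Python 3.11.15 with matplotlib 3.10.9 drew the figures and jsonlite 2.0.0 read the file list. The number of arrays limits the precision. Groups came from sample titles, and the file names gave slide and array position. Every slide carried 1 array per group, and its number follows the replicate number, which is where the pairing comes from. Deviations from the group mean correlated at a median of 0.072 between arrays of the same slide and at -0.029 between slides, across groups.

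Of 44 identifiers in the synonyms of the RefSeq table (Release 6), 17 led to a single symbol. The 4 genes and the gene lists were chosen with earlier results of these data known. The naming rule took the 4 genes in every comparison, the 2 most alike transcripts with a single symbol, and named members of the lists, of which there were none. Alternatives were no further normalization, median centring, the series table, slide as a fixed or random block, slide with array position, a robust eBayes with a trend, a filter on the dimmest 25% of transcripts, fits of only the groups compared, an adjusted p under 0.01, and the omission of single arrays or of all arrays with 1 number.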

Additional observations from a re-analysis of the deposited data

Results flagged for a closer look

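Each gene's 5 values in each group (16 sets in all) were examined for an array standing apart, and 1 set held one. It was kis in replicate 3 of the control larval wings, at 12.99, while the other 4 arrays lay between 13.22 and 13.27. Its gap to the nearest array was 0.828 of the range of the group, above the critical value of 0.71, and chance flags about 1 in 20 groups. Without that array the kis stage difference of control wings was 0.37 (limma adjusted p = 0.124), on the same side of the threshold. What set that array apart was not tested.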

How the results depend on the processing

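Of the 4 genes, 3 passed for the stage change in Tkv wings and 1 in control wings, where limma called 39.3% and 40.6% of all transcripts. In Tkv wings the count of the 4 genes was 2 without further normalization, 2 from the series table and 2 with slide and array position in the model. It was 1 with median centring, 0 with Tkv arrays alone and 0 at an adjusted p under 0.01. In control wings it was 3 with the replicate block (slide as a fixed effect), 2 with slide as a random block, 2 with the replicate block and array position, 2 without the dimmest 25% of transcripts and 2 with a robust eBayes with trend. With the replicate block limma called 43.0% of all transcripts in control wings and 41.8% in Tkv wings. That share is not given here for the other alternatives. With arrays left out the count of the 4 genes was 0 to 3 in Tkv wings and 1 to 2 in control wings. The count stayed at 0 for both Tkv responses and for their difference between stages under every alternative run. The replicate block changed no call beyond those of kis and SuUR in control wings.

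In control wings the kis stage difference, 0.42, passed with the replicate block, the random block, the filter and the robust eBayes (limma adjusted p = 0.0315, 0.0374, 0.0403 and 0.0291). The control difference of SuUR passed with the replicate block (-0.33, limma adjusted p = 0.0461) and with array position added to that block (-0.36, limma adjusted p = 0.0377). The sign of the His4r control difference turned with that block and array position (0.058). In Tkv wings the HDAC3 change no longer passed with median centring (-0.27), with the block and array position (-0.23) or with Tkv arrays alone (-0.26). The kis change in Tkv wings no longer passed without further normalization (0.43), from the series table (0.43), which holds the same values, with median centring (0.43) or with Tkv arrays alone (0.45). The SuUR change no longer passed with Tkv arrays alone (-0.51), a fit with fewer samples and an SE of 0.18 against 0.16. What caused these changes of call was not tested.

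The averages over both genotypes, chosen after seeing the data, were 0.43 for kis and -0.42 for SuUR and passed. In these averages 3 of the 4 genes passed, against 51.5% of all transcripts. Averaging over both stages turned the sign of the larval Tkv response of HDAC3 (0.0059) and of the pupal one of His4r (0.18), neither of which passed.

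With single arrays or replicate numbers left out, the stage change in Tkv wings lay between -0.31 and -0.23 for HDAC3, 0.33 and 0.59 for kis, -0.64 and -0.39 for SuUR and -0.70 and -0.29 for His4r. In control wings it lay between 0.32 and 0.53 for kis and -0.20 and 0.15 for His4r. Signs of Tkv responses that passed no test also turned. The larval response lay between -0.10 and 0.0085 for HDAC3 and -0.18 and 0.048 for SuUR, the pupal response between -0.0019 and 0.080 for HDAC3, -0.28 and 0.17 for His4r and -0.23 and 0.0081 for kis, and the difference between stages between -0.10 and 0.21 for kis. Without a change of sign, the larval response lay between -0.30 and -0.071 for kis and 0.26 and 0.56 for His4r, the pupal response of SuUR between -0.37 and -0.16, and the difference between stages between 0.034 and 0.12 for HDAC3, -0.42 and -0.044 for SuUR and -0.80 and -0.088 for His4r. All 4 probe sets were brighter than at least 52.3% of transcripts on each of the 20 arrays, so none was measured at the dim end.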
